A study of Mus musculus with 5 samples.

Results

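The 9 genes described here encode the receptors CD28, ICOS, CTLA-4 and PD-1 and the surface ligands that bind them, CD80, CD86, ICOS ligand, PD-L1 and PD-L2. They were taken by symbol (Cd28, Icos, Ctla4, Pdcd1, Cd80, Cd86, Icosl, Cd274 and Pdcd1lg2) from the 31053 genes listed in each library, and each symbol had 1 row. Raw UMIs, counts of tagged RNA molecules, were read in single cells from digested mouse hearts, captured with the 10x Genomics 5′ kit. Control hearts came from 4 Ctla4+/+Pdcd1-/- mice and gave replicates 1 and 2. Hearts of 10 Ctla4+/-Pdcd1-/- mice gave replicates 3, 4 and 5 of the disease group, the study's model of the myocarditis that immune checkpoint inhibitors can cause. Both groups thus lack Pdcd1 in the germ line, and the groups differ by 1 intact copy of Ctla4. The ages and the strain are not given in the sources used here. The per-library labels continue the last digit of the gene and dye names as a series (Pdcd2, Pdcd3, DRAQ6 and so on), so the genotypes above follow the study's design text, which names Pdcd1 and DRAQ5 throughout. Hearts were pooled before live nucleated cells were sorted, nothing ties a library to particular mice, and p-values therefore measure only the spread between these libraries, which may be technical.

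A T cell that meets its antigen needs a costimulatory signal, which CD28 delivers when it binds CD80 or CD86 on an antigen-presenting cell. ICOS gives a related signal after activation and binds only ICOS ligand. CTLA-4 competes with CD28 for CD80 and CD86, binds them more tightly and can strip them from the presenting cell, while PD-1 dampens antigen receptor signalling when PD-L1 or PD-L2 engages it. PD-L1 is induced by interferon-gamma in many cell types, including the endothelium of the heart, whereas PD-L2 is found mainly on dendritic cells and macrophages.

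The members lie in clusters in the mouse genome (GRCm38, the assembly also called mm10, GENCODE M21 gene bounds). Cd28 (chr1:60716800-60773359), Ctla4 (chr1:60887000-60915832) and Icos (chr1:60977927-61000320) are neighbours on 1 strand, with 113.6 kb between Cd28 and Ctla4 and 62.1 kb between Ctla4 and Icos. Pdcd1 (chr1:94038305-94052553) is farther along the same chromosome. Cd86 (chr16:36603869-36666081) and Cd80 (chr16:38455561-38496335) share a chromosome, Icosl lies at chr10:78069302-78083913, and Cd274 (chr19:29367455-29388095) is followed after 22.8 kb by Pdcd1lg2 (chr19:29410919-29471161).

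Promoter windows of 3 ligands are shown because their RNA followed different patterns below: Cd274 and Pdcd1lg2 were high together in macrophages that held Cxcl9, and Icosl was level across libraries. Each window runs 250 bases before to 50 bases after the start given by RefSeq (GRCm38.p6), on the gene's own strand, which is the plus strand for these 3 genes. Capitals mark the core of an interferon regulatory factor element, AANNGAAA, found here on the opposite strand.
Cd274, chr19:29367188-29367487: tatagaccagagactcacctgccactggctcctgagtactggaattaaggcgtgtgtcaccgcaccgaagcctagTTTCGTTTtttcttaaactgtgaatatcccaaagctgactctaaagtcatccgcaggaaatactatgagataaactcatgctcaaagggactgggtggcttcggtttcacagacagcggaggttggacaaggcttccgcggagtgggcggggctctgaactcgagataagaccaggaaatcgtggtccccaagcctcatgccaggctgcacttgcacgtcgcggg
Pdcd1lg2, chr19:29410669-29410968: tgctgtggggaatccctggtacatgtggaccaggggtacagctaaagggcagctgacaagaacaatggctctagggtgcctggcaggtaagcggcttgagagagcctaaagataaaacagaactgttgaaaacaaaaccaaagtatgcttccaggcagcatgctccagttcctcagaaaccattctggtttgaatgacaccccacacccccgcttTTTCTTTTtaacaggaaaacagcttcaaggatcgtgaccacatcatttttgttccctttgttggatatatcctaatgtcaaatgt
Icosl, chr10:78069118-78069417: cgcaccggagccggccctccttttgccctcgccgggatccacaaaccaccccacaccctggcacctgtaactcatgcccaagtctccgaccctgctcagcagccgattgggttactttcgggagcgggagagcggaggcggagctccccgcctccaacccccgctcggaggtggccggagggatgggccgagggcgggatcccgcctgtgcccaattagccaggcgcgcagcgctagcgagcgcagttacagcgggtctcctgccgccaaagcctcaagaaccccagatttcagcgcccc
RefSeq windows were matched for 6 of the 9 members. Of these, the core element was found 175 bases before the start of Cd274, 35 before that of Pdcd1lg2 and 28 before that of Pdcd1, and 30 bases after that of Cd80, and it was not in the windows of Icosl and Ctla4. On both strands, 23.9% of all 32851 windows held this core, so a match is common. The longer element GAAA, 2 bases of any kind, GAAA (3.44% of windows), the GAS element TTCNNNGAA (8.30%) and an NF-kappaB-like element of GGGA, 2 bases of any kind, TTCC (1.47%) were found in none of the 6. Icosl had the most GC-rich window, 68.0% with 26 CpG, against 52.7% with 15 CpG in Cd274 and 46.0% with 3 CpG in Pdcd1lg2.

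After filters on depth, mitochondrial share and doublets, 35838 of 47319 cell barcodes were kept, between 5338 and 9158 per library, with medians of 3317 to 4479 UMIs per cell. Barcodes shared by a pair of libraries numbered 86 to 161, at most 1.90% of the smaller library. A cell was gated into a lineage when it held UMIs of at least 3 distinct markers of that lineage and at least 2 more than of any other list. This gave 3330 T cells, 1115 B cells, 4383 macrophages, 147 dendritic cells, 13773 endothelial cells and 10475 fibroblasts, and 5.76% of kept cells passed no gate. The gated cells held on average 4.19 to 5.38 of 8 T cell markers, 5.37 to 5.57 of 8 B cell markers, 6.38 to 6.93 of 8 macrophage markers, 5.06 to 6.38 of 16 dendritic markers, 7.25 to 7.74 of 10 endothelial markers and 8.96 to 9.14 of 10 fibroblast markers, depending on the library. T cells were 5.72, 1.37, 1.88, 23.3 and 7.31% of the kept cells of replicates 1 to 5, so disease replicate 4 stands apart from the rest. In control replicate 2 the dendritic gate held only 3 cells, and its dendritic values are left out of the tests. In the text below, library values stand in the order of replicates 1 to 5, the 2 controls first, and CPM is UMIs per 1000000 UMIs of the lineage in that library.

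The ligands were held by different cells. Over all kept cells, endothelial cells held 49.6% of the 14939 Cd274 UMIs and macrophages 26.0%. Macrophages held 72.8% of the 13778 Cd86 UMIs, and fibroblasts 62.9% of the 3997 Icosl UMIs. Cd80, with 2081 UMIs, had no leading cell type: macrophages held 29.8%, fibroblasts 28.0%, T cells 21.9% and dendritic cells 9.85%. Pdcd1lg2, the rarest member with 950 UMIs, was split mainly between macrophages (35.8%) and T cells (35.6%) in these sums. In single libraries its macrophage share ran from 14.8 to 48.7% and its T cell share from 9.26 to 41.5%. Its dendritic share reached 27.8% and its B cell share 31.25%. Of the 4 receptor genes, T cells held 83.6% of Cd28, 89.3% of Icos, 89.1% of Ctla4 and 88.4% of Pdcd1 UMIs over all libraries. By library these shares ran from 61.2 to 86.8% for Cd28, 58.2 to 91.0% for Icos, 64.3 to 91.0% for Ctla4 and 38.0 to 90.2% for Pdcd1. The lowest Pdcd1 share was that of control replicate 2, with 27 T cell UMIs, and disease replicate 4 gave 10380 of the 14564 Pdcd1 UMIs in T cells.

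**Figure D1:**
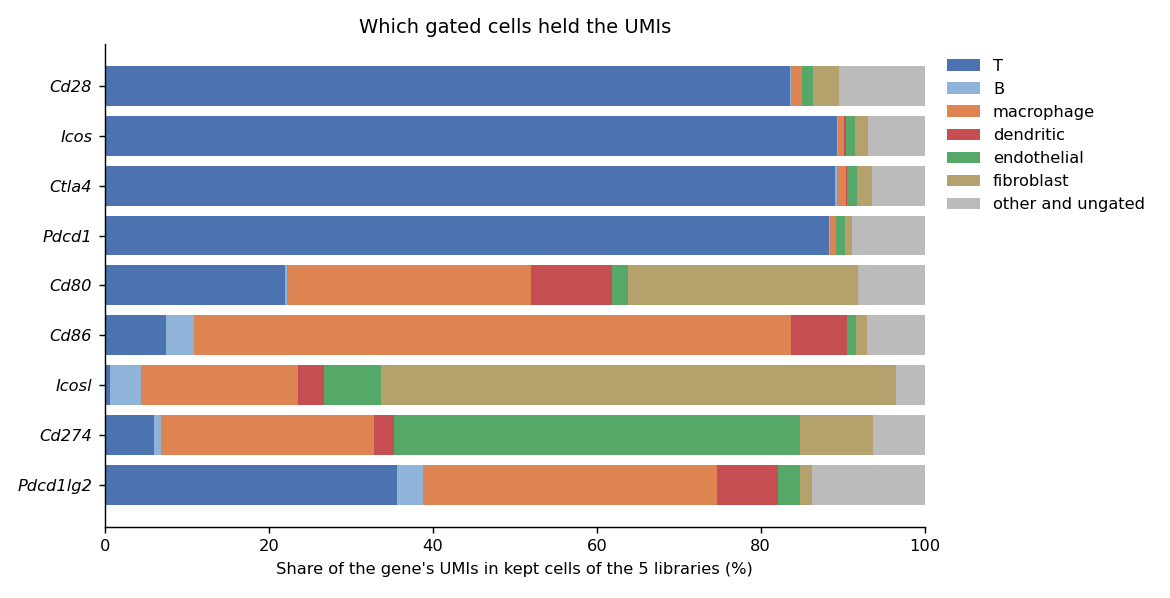
Share of each gene's UMIs by gated lineage, summed over the kept cells of the 5 libraries (horizontal axis, percent; 1 bar per gene). T cells hold 83.6 to 89.3% of each receptor in these sums, to which disease replicate 4 gave the most T cells, endothelial cells 49.6% of Cd274, macrophages 72.8% of Cd86 and fibroblasts 62.9% of Icosl.

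These shares depend on how many cells of each lineage a library held. The endothelial share of Cd274 was 64.6, 84.8, 73.5, 32.0 and 61.4% in the 5 libraries, and the macrophage share was 15.2, 2.84, 4.76, 38.7 and 18.1%. In disease replicate 4 the macrophages therefore held more Cd274 UMIs than the endothelium, and in the other 4 libraries the endothelium held most. The T cell share of Cd80 ranged from 0.806% in control replicate 2 to 35.4% in disease replicate 4, and the macrophage share of Cd86 only from 70.2 to 79.5%. Levels per UMI of a lineage are less affected by cell numbers and follow below.

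A large share of all genes differed between any pair of lineages, so a call there says little by itself. In edgeR's quasi-likelihood test with libraries as blocks, 35.5% of 13378 genes were called for T over B cells, 64.8% for T cells over macrophages, 39.6% for T over dendritic cells, 71.2% for T over endothelial cells and 74.2% for T cells over fibroblasts. For B cells the share was 51.6% over macrophages, 35.8% over dendritic cells, 59.4% over endothelial cells and 65.2% over fibroblasts. The remaining pairs gave 38.2% for macrophages over dendritic cells, 68.7% for macrophages over endothelial cells, 69.9% for macrophages over fibroblasts, 56.2% for dendritic over endothelial cells, 58.6% for dendritic cells over fibroblasts and 64.4% for endothelial cells over fibroblasts. A call means an adjusted p (Benjamini-Hochberg over all genes of the contrast) under 0.05. Over the 15 pairs, 87 tests of a member were calls.

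Cd274, encoding PD-L1, had its highest mean in endothelial cells, at 155, 92.4, 83.3, 404 and 167 CPM. Dendritic cells held 157, 0, 239, 178 and 110 CPM, with the 0 coming from the 3 cells of control replicate 2. In macrophages the level was 44.8, 11.7, 15.96, 266 and 108 CPM. Endothelial cells and dendritic cells did not differ beyond their spread (log2 fold change of dendritic over endothelial cells 0.41, SE 0.44, edgeR adjusted p 0.434). Macrophages were below both, by 0.92 on the log2 scale against endothelial cells (SE 0.35, edgeR adjusted p 0.0191) and by 1.34 against dendritic cells (SE 0.44, edgeR adjusted p 0.0155). The first call was lost without control replicate 1 (log2 fold change -0.85, edgeR adjusted p 0.0959) or 2 (-0.70, edgeR adjusted p 0.0781). The second was lost without control replicate 1 (-1.12, edgeR adjusted p 0.142) or disease replicate 3 (-0.67, edgeR adjusted p 0.267), and its value was -2.03 without disease replicate 4.

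B cells (mean 39.9 ± 10.52 CPM, SD, n = 5) and T cells (38.5 ± 19.6 CPM, SD, n = 5) held lower levels of Cd274 that could not be told apart (log2 fold change of T over B cells -0.24, SE 0.55, edgeR adjusted p 0.783). B cells and macrophages also overlapped (log2 fold change -0.71, SE 0.49, edgeR adjusted p 0.238). Fibroblasts were lowest, at 8.88, 4.81, 5.08, 66.9 and 17.2 CPM, and endothelial cells lay above them by 3.37 on the log2 scale (SE 0.37, edgeR adjusted p 1.7e-09). Disease replicate 4 had the highest Cd274 level of the 5 libraries in T cells, macrophages, endothelial cells and fibroblasts, while the B cell maximum (54.7 CPM) was in disease replicate 5.

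Cd86, the CD28 and CTLA-4 ligand that resting antigen-presenting cells already carry, was at 330, 614, 352, 485 and 409 CPM in dendritic cells and at 268, 244, 244, 429 and 346 CPM in macrophages. These neighbours did not differ beyond their spread (log2 fold change of macrophages over dendritic cells -0.40, SE 0.23, edgeR adjusted p 0.182). B cells followed with 116, 143, 136, 166 and 185 CPM, below macrophages by 0.93 on the log2 scale (SE 0.23, edgeR adjusted p 8.3e-04). T cells held 50.6, 17.9, 46.9, 70.7 and 62.1 CPM, below B cells by 1.66 on the log2 scale (SE 0.26, edgeR adjusted p 4.1e-06) and above endothelial cells by 4.31 (SE 0.28, edgeR adjusted p 6.4e-15).

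Between 61.1 and 80.8% of macrophages had a Cd86 UMI, at medians of 5077 to 7081 UMIs per cell, against 0.261 to 1.53% of endothelial cells at medians of 2211 to 3120.5 UMIs. After each cell was thinned to 1000 UMIs the macrophage share was 21.1 to 33.0% and the endothelial share 0.0809 to 0.920%. Cd86 was also set beside the 8 macrophage markers. Per 100 UMIs of these markers it was at 1.40 UMIs in endothelial cells (0.546 to 2.29 by library), 1.12 in fibroblasts (0.464 to 2.27) and 1.46 in macrophages (1.13 to 1.63). The part of free macrophage RNA in the low Cd86 of endothelial cells and fibroblasts was not tested. In T cells the ratio was 37.1, in B cells 66.4 and in dendritic cells 529.

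Cd80, the other ligand shared by CD28 and CTLA-4, was highest in dendritic cells among the 6 lineages, at 62.2, 478, 113, 77.5 and 101 CPM, and the 478 came from 21 UMIs in the 3 cells of control replicate 2. Over the 4 libraries with more than 10 dendritic cells the mean was 88.5 ± 22.9 CPM (SD, n = 4). Macrophages held 17.1, 12.5, 27.7, 21.6 and 25.05 CPM, 2.04 below dendritic cells on the log2 scale (SE 0.24, edgeR adjusted p 3.6e-08). T cells held 16.4, 2.98, 8.52, 32.8 and 30.7 CPM and did not differ from macrophages beyond the spread (log2 fold change 0.14, SE 0.21, edgeR adjusted p 0.588).

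Fibroblasts held Cd80 at 5.48, 6.69, 9.69, 13.8 and 10.8 CPM, below T cells (log2 fold change of T cells over fibroblasts 1.61, SE 0.22, edgeR adjusted p 6.4e-08). B cells (0, 0, 2.52, 3.09 and 1.89 CPM, from 5 UMIs in all) and endothelial cells (0.630, 0.111, 0.880, 3.03 and 0.786 CPM) were lower, with endothelial cells below fibroblasts by 3.37 (SE 0.28, edgeR adjusted p 3.1e-12). Fibroblast Cd80 stood at 3.69 UMIs per 100 macrophage marker UMIs (1.55 to 7.32 by library) against 0.0906 in macrophages, and at 45.3 per 100 T cell marker UMIs against 0.431 in T cells. Against dendritic markers, some of which other cells also express, the ratio was 10.2 in fibroblasts and 3.16 in dendritic cells.

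Icosl, the ligand of ICOS, varied little between libraries in its main cell types. Fibroblasts held 36.2, 34.5, 38.6, 44.1 and 40.8 CPM and B cells 50.1, 55.4, 47.8, 47.4 and 43.4 CPM. Macrophages held 22.5, 36.3, 30.6, 24.7 and 24.4 CPM, and endothelial cells 6.39, 5.20, 6.05, 5.56 and 6.88 CPM. Dendritic cells held 35.8, 227, 56.7, 57.6 and 62.8 CPM, where the 227 rests on 10 UMIs in 3 cells, and did not differ from B cells beyond the spread (log2 fold change of B over dendritic cells -0.23, SE 0.24, edgeR adjusted p 0.493).

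B cells were above fibroblasts for Icosl by 0.69 on the log2 scale (SE 0.19, edgeR adjusted p 0.00203), a call that was lost without control replicate 1 (edgeR adjusted p 0.0513). Fibroblasts and macrophages were not separated (log2 fold change of macrophages over fibroblasts -0.24, SE 0.14, edgeR adjusted p 0.134). With RLE scaling (edgeR adjusted p 0.00808) or without control replicate 2 (edgeR adjusted p 0.0173) that difference was a call. Macrophages were above endothelial cells by 2.57 (SE 0.17, edgeR adjusted p 6.5e-15). T cells were lowest, with 27 Icosl UMIs in 3330 cells, and lay below endothelial cells (log2 fold change -1.33, SE 0.33, edgeR adjusted p 6.6e-04).

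Pdcd1lg2, encoding PD-L2, was at 22.6, 0, 60.7, 31.0 and 30.4 CPM in dendritic cells, with 0 UMIs in the 3 cells of control replicate 2. T cells held 17.4, 5.96, 10.6, 23.9 and 17.3 CPM, B cells 10.6, 6.75, 12.6, 14.4 and 5.66 CPM, and macrophages 3.56, 1.25, 2.61, 18.9 and 19.6 CPM. T cells and dendritic cells did not differ beyond the spread (log2 fold change -0.91, SE 0.43, edgeR adjusted p 0.0946), except when every gene with a count was tested (-1.03, edgeR adjusted p 0.0156). B cells and macrophages did not differ beyond it either (log2 fold change 0.24, SE 0.51, edgeR adjusted p 0.728). T cells were above macrophages by 0.81 (SE 0.33, edgeR adjusted p 0.0305), but not without control replicate 1 (0.31, edgeR adjusted p 0.499), control replicate 2 (0.74, edgeR adjusted p 0.0504) or disease replicate 3 (0.49, edgeR adjusted p 0.181), and not with RLE scaling (edgeR adjusted p 0.105) or with called doublets kept (edgeR adjusted p 0.0657). Endothelial cells and fibroblasts held 25 and 15 UMIs in all, and macrophages were above endothelial cells by 4.30 (SE 0.44, edgeR adjusted p 2.5e-10). T cell Pdcd1lg2 stood at 12.1 UMIs per 100 macrophage marker UMIs, against 0.0496 in macrophages.

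**Figure D2:**
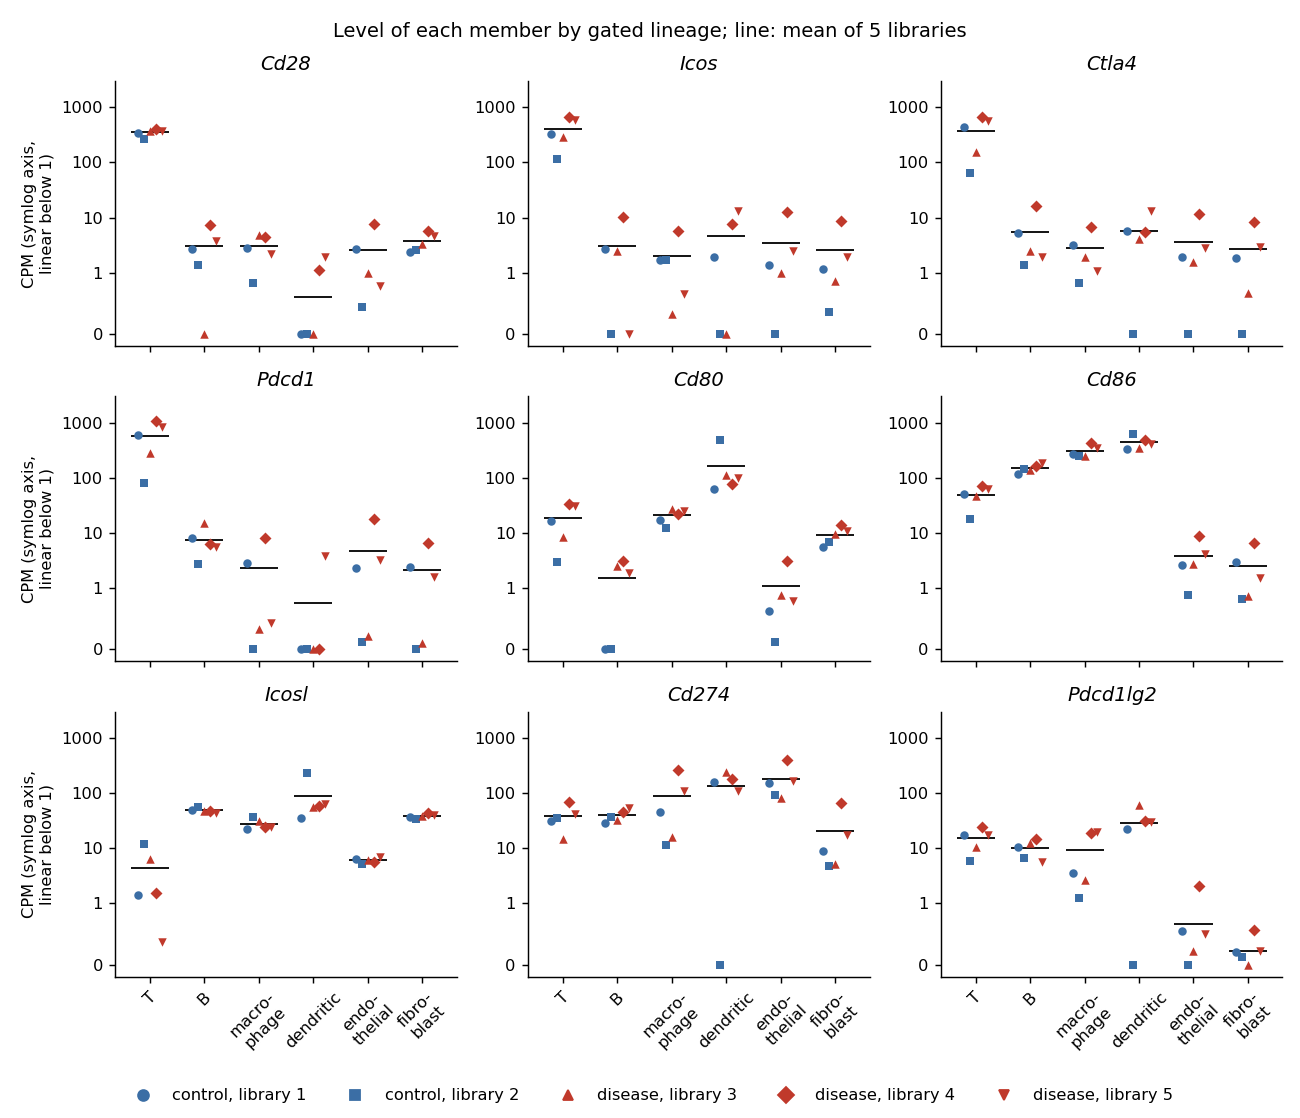
Level of each gene (vertical axis, CPM on a scale that is linear below 1 and logarithmic above) in the 6 gated lineages (horizontal axis), with 1 point per library and a line at the mean of the 5 libraries. The receptors stand at 351.7 to 571 CPM in T cells on average and below 10 CPM elsewhere, Icosl points lie close together in B cells, fibroblasts and endothelial cells, and the square of control replicate 2 in the dendritic column rests on 3 cells.

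Inside the macrophage gate the PD-1 ligands were concentrated in the cells with a UMI of Cxcl9, a chemokine gene induced by interferon-gamma. These cells made up 12.0, 2.11, 4.07, 54.1 and 23.9% of the macrophages of the 5 libraries. Cd274 was at 139, 60.2, 123, 365 and 238 CPM in macrophages with a Cxcl9 UMI and at 20.4, 10.3, 8.05, 54.3 and 23.8 CPM in those without. Pdcd1lg2 was at 15.6, 0, 37.7, 26.9 and 47.2 CPM with and at 0.420, 1.29, 0, 1.72 and 1.78 CPM without. For Cd274 the ranges of the 2 classes do not overlap. For Pdcd1lg2 the class with a Cxcl9 UMI was higher in 4 of 5 libraries, and its 10 cells in control replicate 2 held none.

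The log2 fold change of macrophages with over those without a Cxcl9 UMI was 3.17 for Cd274 (SE 0.17, edgeR adjusted p 3.2e-14) and 4.84 for Pdcd1lg2 (SE 0.35, edgeR adjusted p 1.5e-11). Of the 9 members, Icos had too few counts to be tested and 5 were called in this comparison, in which 25.2% of 10458 genes were called. Cd86 was higher by 0.45 (SE 0.14, edgeR adjusted p 0.0169), and this call was lost without control replicate 1 (edgeR adjusted p 0.142), disease replicate 4 (edgeR adjusted p 0.0962) or disease replicate 5 (edgeR adjusted p 0.237). Cd28 (log2 fold change -1.41, edgeR adjusted p 0.0287) and Ctla4 (-1.15, edgeR adjusted p 0.0486), T cell genes at a few CPM in macrophages, were lower. Neither of these was called without control replicate 1 or 2 or disease replicate 4 or 5. Cd80 (0.38, edgeR adjusted p 0.156) and Icosl (-0.31, edgeR adjusted p 0.244) did not pass the test. Cells with a UMI of any gene tend to be deeper, and the part of depth was not tested. CPM divides by each class's total.

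A split of macrophages by other markers set the PD-1 ligands higher in monocyte-like than in resident cells. Most of their UMIs lay outside the monocyte-like cells. Pooled over the 5 libraries, the 1319 macrophages of neither class held 2050 Cd274 and 203 Pdcd1lg2 UMIs. Monocyte-like cells held 525 and 45, and resident cells 1310 and 92. Cd28 had too few counts to be tested between resident and monocyte-like macrophages. Of the other members, 3 were called, in a comparison where 24.4% of 10725 genes were called. It rests on the 3 libraries (control replicate 1 and disease replicates 4 and 5) with 10 or more monocyte-like cells, 22, 106 and 26. In these libraries Cd274 was at 133, 330 and 342 CPM in monocyte-like cells and at 28.9, 163 and 54.5 CPM in resident cells (log2 fold change of resident over monocyte-like cells -1.93, SE 0.17, edgeR adjusted p 1.7e-28). Pdcd1lg2 was at 27.3, 23.0 and 34.9 CPM against 1.51, 11.3 and 6.09 CPM (-2.15, SE 0.43, edgeR adjusted p 7.6e-06, and -3.31 without disease replicate 4).

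Cd80 was lower in resident macrophages too (log2 fold change -0.77, SE 0.28, edgeR adjusted p 0.0278), though not without disease replicate 4 (-0.88, edgeR adjusted p 0.169) or 5 (-0.61, edgeR adjusted p 0.227), nor when every gene with a count was tested (edgeR adjusted p 0.0578). Cd86 (0.12, edgeR adjusted p 0.587) and Icosl (0.30, edgeR adjusted p 0.535) did not pass the test. Cd86 was at 177, 343 and 304 CPM in monocyte-like cells and at 251, 381 and 327 CPM in resident cells.

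Among the 5 named vessel classes of the endothelium, Cd274 was highest in capillary cells, which numbered 1829 to 2784 per library, at 169, 99.7, 88.7, 408 and 173 CPM. Arterial cells held 68.1, 50.2, 39.1, 221 and 81.0 CPM, and endocardial cells 24.9, 13.6, 7.06, 243 and 15.5 CPM. In each of the 5 libraries the capillary level was above the arterial and the endocardial level. Pooled over libraries, the 1311 endothelial cells of no named class held 194 CPM and capillary cells 172 CPM. Disease replicate 4 gave 280 of these 1311 and 1829 of the 11581 capillary cells, and the part of this mix was not tested. The log2 fold change of capillary cells was 1.13 over arterial (SE 0.18, edgeR adjusted p 5.9e-06), 2.06 over endocardial (SE 0.37, edgeR adjusted p 1.7e-05), 2.27 over lymphatic (SE 0.47, edgeR adjusted p 1.9e-04) and 1.38 over venous cells (SE 0.42, edgeR adjusted p 0.0170). The venous call was lost without disease replicate 4 (log2 fold change 0.66, edgeR adjusted p 0.181) or 5 (1.19, edgeR adjusted p 0.0728). Venous sums held only 11 to 25 cells in the 4 libraries tested, and lymphatic sums 10 to 25 cells, with Cd274 at 44.7, 0, 0, 176.6 and 0 CPM. Cd274 was the 1 member tested in these contrasts, in which 36.2% of 4055 genes were called for arterial, 42.6% for endocardial, 36.2% for lymphatic and 20.6% for venous cells.

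**Figure D3:**
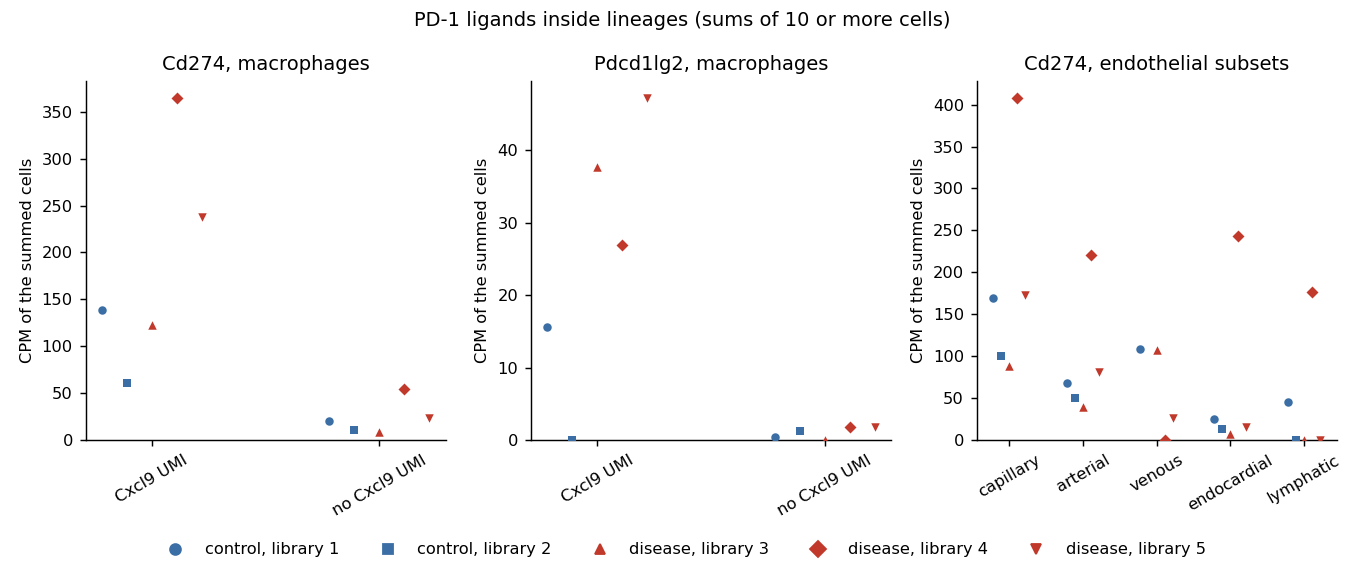
Levels of the PD-1 ligands inside lineages (vertical axis, CPM of the summed cells; 1 point per library and subset, sums of 10 or more cells). Cd274 is at 60.2 to 365 CPM in macrophages with a Cxcl9 UMI and at 8.05 to 54.3 CPM in those without, and capillary cells lie above arterial and endocardial cells in each library.

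Dendritic subsets were too small for a test, and their values are pooled over the 5 libraries. The 20 mature migratory cells, marked by genes such as Ccr7 and Fscn1, held Cd274 at 463 CPM, Pdcd1lg2 at 194 CPM and Cd80 at 221 CPM. The 101 type 1 cells held 110 CPM of Cd274, 11.5 CPM of Pdcd1lg2 and 64.3 CPM of Cd80. The 15 type 2 cells held 89.6 CPM of Cd274, 14.1 CPM of Pdcd1lg2 and 146 CPM of Cd80, and the 11 cells of no named subset 338 CPM, 30.7 CPM and 111 CPM. Cd86 was lowest in mature migratory cells, at 287 CPM, against 424 CPM in type 1, 372 CPM in type 2 and 615 CPM in the unnamed cells. The mature migratory cells numbered 1, 1, 5, 7 and 6 in the 5 libraries, and the part of this mix was not tested. Cells of the dendritic gate were deep, with medians of 13380 to 16332.5 UMIs, and held macrophage markers at 22.7 to 113.4 CPM in sum, against 18804 to 26345 CPM in macrophages.

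The receptors were measured mainly in T cells. Cd28, which naive and activated T cells carry, was at 340, 268, 377, 407 and 366 CPM. Icos, which rises on activation, was at 330, 116, 290, 675 and 580 CPM. Ctla4 was at 448, 65.6, 158, 658 and 561 CPM. Pdcd1 was at 594, 80.5, 277, 1066 and 839 CPM. Control replicate 2 was lowest in all 4 receptors and disease replicate 4 highest, and control replicate 1 lay above disease replicate 3 for Icos, Ctla4 and Pdcd1, so for these 3 genes the groups overlap.

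The RNA of Pdcd1 was counted in each library although all mice are Pdcd1-/-. In T cells of control replicate 2 it rested on 27 UMIs (95% exact Poisson interval 53.0 to 117 CPM, counting error only) and in disease replicate 4 on 10380. The labels do not say which part of the gene was deleted, and a count that includes sequence outside it checks nothing. Likewise Ctla4, with 1 intact copy in disease mice and 2 in controls, was not lower in disease, and the deposited counts do not tell intact from disrupted transcripts.

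Each of the 4 receptor genes was higher in T cells than in each of the 5 other lineages, by 6.10 to 10.08 on the log2 scale. Outside T cells their counts are set beside those of the T cell markers. In T cells there were 8.84 Ctla4, 13.8 Pdcd1, 8.80 Icos and 5.88 Cd28 UMIs per 100 UMIs of the 8 T cell markers. In endothelial cells the values were 9.43, 11.9, 8.80 and 6.83, and in macrophages 14.8, 14.9, 10.98 and 12.8. Dendritic cells had higher ratios for Ctla4 (53.3) and Icos (50.0), from 16 and 15 UMIs beside 30 T cell marker UMIs, and 6.67 for both Pdcd1 and Cd28. By library the endothelial ratios ran from 0 to 25.9 for Ctla4, 3.12 to 14.8 for Pdcd1, 0 to 16.7 for Icos and 3.24 to 16.7 for Cd28. Those of macrophages reached 200 for Ctla4 and Cd28 and 400 for Icos. These maxima were in control replicate 2, whose macrophages held UMIs of 1 T cell marker only, at 0.417 CPM, so they rest on very few counts. The part of free T cell RNA in these counts was not tested. In fibroblasts the Cd28 ratio was 18.2 against 5.88 in T cells, from 234 UMIs in 10475 cells. Between 13.7 and 80.1% of T cells had a Pdcd1 UMI, at medians of 3873 to 5026 UMIs per cell, against 0.0373 to 3.096% of endothelial cells at 2211 to 3120.5 UMIs. After thinning to 1000 UMIs these shares were 5.48 to 56.9% and 0.0403 to 1.64%.

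CD8 cells made up 78.2, 50.7, 56.7, 82.1 and 83.3% of the T cells of the 5 libraries, and CD4 cells without a Foxp3 UMI 6.31, 23.3, 18.3, 6.65 and 5.31%. Another 14.7, 24.7, 24.0, 10.9 and 10.6%, 404 cells in all, were in no named subset. Pdcd1 was at 203, 31.4, 163, 433 and 533 CPM in CD4 and at 656, 114, 382, 1144 and 878 CPM in CD8 cells, higher in CD8 cells of all 5 libraries. It was the 1 member of 7 tested that was called between the subsets (log2 fold change of CD4 over CD8 cells -1.35, SE 0.18, edgeR adjusted p 7.9e-05), where 5.61% of 4043 genes were called. Without each library in turn the value stayed between -1.61 and -1.21 and the call held.

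Ctla4 did not pass the test between CD4 and CD8 cells (log2 fold change 0.12, SE 0.17, edgeR adjusted p 0.844), and its values of 495, 47.1, 176, 661 and 554 CPM in CD4 cells lay close to the 364, 39.6, 179, 610 and 529 CPM in CD8 cells. Icos was higher in CD4 cells of all 5 libraries without passing the test (0.51, SE 0.17, edgeR adjusted p 0.0990), and Cd28 in 4 of 5 (0.41, SE 0.17, edgeR adjusted p 0.235). Of the ligands counted in T cells, Pdcd1lg2 was at 47.7, 0, 25.1, 51.6 and 52.3 CPM in CD4 and at 15.8, 9.89, 10.7, 20.8 and 15.2 CPM in CD8 cells (log2 fold change 1.33, SE 0.41, edgeR adjusted p 0.0725). It passed without control replicate 2 (1.42, edgeR adjusted p 0.0221) or disease replicate 3 (1.35, edgeR adjusted p 0.0451). Cd86 had a value of -0.85 (SE 0.34, edgeR adjusted p 0.205).

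**Figure D4:**
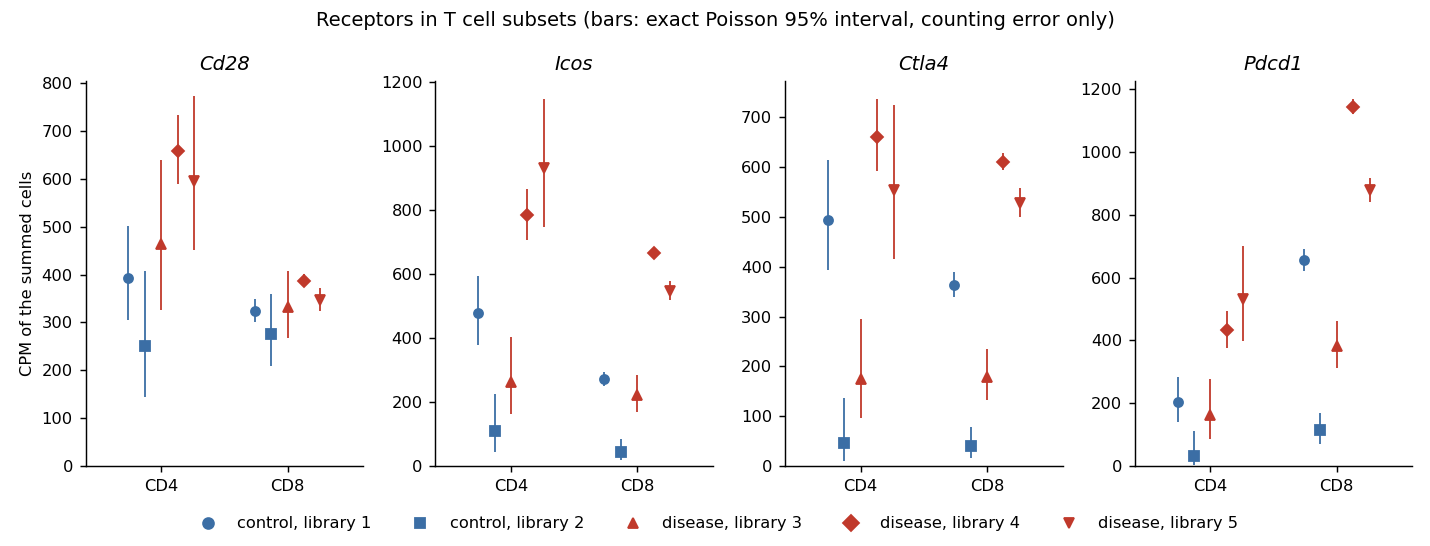
Receptor levels in CD4 and CD8 T cells (vertical axes, CPM of the summed cells; 1 point per library, bars are exact Poisson 95% intervals that cover counting error only). Pdcd1 is higher in CD8 than in CD4 cells of all 5 libraries, and Ctla4 levels of the 2 subsets lie close together within a library.

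Only 17 regulatory T cells, with a Foxp3 UMI and no Cd8a or Cd8b1 UMI, were found (4, 1, 1, 7 and 4), too few for a test. Pooled over libraries they held 302 Ctla4 UMIs, 2490 CPM, against values of up to 661 CPM in CD4 and 610 CPM in CD8 cells of any library. The 404 T cells of no named subset held Ctla4 at 754 CPM, pooled in the same way. Icos was at 874 CPM, Cd28 at 404 CPM and Pdcd1 at 272 CPM in the regulatory cells. The single regulatory cell of disease replicate 3 held no Ctla4 UMI.

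T cells with UMIs of at least 2 cell cycle markers were compared with the rest in the 3 libraries with 10 or more such cells (35, 117 and 34 cells in control replicate 1 and disease replicates 4 and 5). Of the 9 members, 5 were called, all lower in CPM in cycling cells, where 26.0% of 8313 genes were called. Cycling cells were deeper, with medians of 9479, 8529 and 10999.5 UMIs against 4867, 3754.5 and 4286 in the rest, and more of them had a UMI of Cd28 (86.7 against 71.5%, pooled over the 5 libraries) and of Pdcd1 (89.2 against 76.4%). Cd28 was at 244, 317 and 301 CPM in cycling and at 360, 419 and 377 CPM in other T cells (log2 fold change -0.46, SE 0.10, edgeR adjusted p 0.00177). Pdcd1 was lower by 0.33 (SE 0.08, edgeR adjusted p 0.00567) and Icos by 0.35 (SE 0.10, edgeR adjusted p 0.0130), the latter not without disease replicate 5 (-0.25, edgeR adjusted p 0.0958) and at -0.59 without disease replicate 4. Ctla4 did not pass the test (0.07, SE 0.11, edgeR adjusted p 0.675). The ligands Cd86 (-0.66, edgeR adjusted p 0.0336) and Cd274 (-0.67, edgeR adjusted p 0.0112) were the other 2 calls.

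Disease and control libraries were compared within each lineage that had at least 50 cells in every library, with edgeR on UMIs summed per library. In T cells 0 of 9 members passed the test, where 5.11% of 9478 genes were called, nearly all of them lower in disease (483 of 484). Before adjustment, an edgeR p under 0.05 was found for Icos in T cells, Cd80 and Pdcd1lg2 in macrophages, and Cd28 and Cd80 in fibroblasts. Cd80 over all cells was the only other such value. No share over all genes is set beside these, so they are a description only. In B cells 0 of 3 tested members passed (9.47% of 5049 genes), in macrophages 0 of 8 (6.61% of 11012), in endothelial cells 0 of 7 (12.1% of 12783), and over all kept cells 0 of 9 (6.51% of 16028). In fibroblasts 1 of 8 passed, against 12.6% of 13483 genes, and 0.363% that were called higher. DESeq2 called 1 member in macrophages, Pdcd1lg2, and otherwise gave the same counts. Members at too few counts to be tested were 6 in B cells, 2 in endothelial cells, and 1 each in macrophages and fibroblasts.

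The fibroblast call was Cd80. Its levels of 9.69, 13.8 and 10.8 CPM in disease lay above 5.48 and 6.69 CPM in the controls (log2 fold change 0.88, SE 0.20, edgeR adjusted p 0.0462). Counting intervals of control replicate 2 (5.07 to 8.67 CPM) and disease replicate 3 (7.89 to 11.8 CPM) overlap. The call held without disease replicate 3 (edgeR adjusted p 0.0440) and was lost without control replicate 1 (edgeR adjusted p 0.214) or 2 (edgeR adjusted p 0.157) and without disease replicate 4 (edgeR adjusted p 0.0744) or 5 (edgeR adjusted p 0.158), where the log2 fold change was 0.72 to 0.99. It was also lost with doublets kept, with a wider mitochondrial limit and after removal of a trend with GC content, at log2 values of 0.67 to 0.91. T cell markers in the fibroblast gate summed to 16.4, 1.29, 1.82, 61.0 and 12.8 CPM and macrophage markers to 353, 177, 156, 286 and 148 CPM, and their part in the difference was not tested.

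In macrophages Cd80 was also higher in all 3 disease libraries (27.7, 21.6 and 25.05 CPM) than in both controls (17.1 and 12.5 CPM), without passing the test (log2 fold change 0.80, SE 0.23, edgeR adjusted p 0.108, and 0.51 without control replicate 2). It was the 1 of 8 tested members with all disease libraries above all controls in that lineage, an order that 12.9% of genes showed. In T cells Cd80 rested on 47 and 1 UMIs in the controls and did not pass the test (1.03, SE 0.57, edgeR adjusted p 0.479), with values of 0.71 without control replicate 2 and 3.07 without control replicate 1. Summed over all cells it was at 8.06, 5.57, 9.93, 20.8 and 13.2 CPM (1.16, SE 0.45, edgeR adjusted p 0.293, and 0.70 without disease replicate 4), the 1 member of 9 whose groups were apart, where 15.2% of genes were. In such sums more cells of a type and more RNA per cell cannot be told apart.

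Among the ligands in macrophages, those of PD-1 had the largest estimates and the widest errors. There the log2 fold change of disease over control was 2.31 for Cd274 (SE 1.15, edgeR adjusted p 0.343) and 2.46 for Pdcd1lg2 (SE 0.87, edgeR adjusted p 0.198). With 1 library left out, the Cd274 value ran from 1.13 (without disease replicate 4) to 3.74 (without control replicate 1), and that of Pdcd1lg2 from 2.02 (without control replicate 2) to 3.70 (without control replicate 1). For both, disease replicate 3 lay below control replicate 1 (15.96 against 44.8 CPM of Cd274 and 2.61 against 3.56 CPM of Pdcd1lg2), so the groups overlap. Without disease replicate 3, Pdcd1lg2 passed the test (log2 fold change 2.86, edgeR adjusted p 0.00969) and Cd274 did not (edgeR adjusted p 0.0666). Pdcd1lg2 also passed with DESeq2 (DESeq2 adjusted p 0.0393), and both passed when every gene with a count was tested.

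Cd274 in fibroblasts gave 2.02 (SE 1.08, edgeR adjusted p 0.289), in endothelial cells 0.74 (SE 0.66, edgeR adjusted p 0.532), in B cells 0.52 (SE 0.32, edgeR adjusted p 0.373) and in T cells 0.43 (SE 0.50, edgeR adjusted p 0.737). Without disease replicate 4 the endothelial value was -0.05 and the T cell value -0.07. Over all cells Cd274 stood at 57.6, 44.2, 41.4, 173 and 83.4 CPM (1.05, SE 0.68, edgeR adjusted p 0.500), and this value ran from 0.24 without disease replicate 4 to 1.42 without disease replicate 3. In fibroblasts the value without disease replicate 4 was 0.62, and in B cells, where that library was not the highest, it stayed between 0.37 and 0.70 whichever library was left out.

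Cd86 was higher in all 3 disease than in both control libraries only in endothelial cells (2.61 and 0.886 against 2.75, 8.76 and 4.13 CPM), where its level was low. It was 1 of 7 tested members with this order, against 26.5% of genes (log2 fold change 1.42, SE 0.66, edgeR adjusted p 0.263). In macrophages, which held most Cd86, the value was 0.54 (SE 0.33, edgeR adjusted p 0.412). In B cells it was 0.41 (SE 0.22, edgeR adjusted p 0.321), and in T cells 0.67 (SE 0.39, edgeR adjusted p 0.504). With 1 library left out, the endothelial value ran from 0.88 (without control replicate 2 or disease replicate 4) to 2.43 (without control replicate 1). The macrophage value ran from 0.26 (without disease replicate 4) to 0.73 (without disease replicate 3), and the T cell value from 0.29 (without control replicate 2) to 1.70 (without control replicate 1).

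Outside T cells the estimates for Icosl were small. Its log2 fold change was 0.17 in fibroblasts (SE 0.11, edgeR adjusted p 0.357), -0.01 in macrophages (SE 0.23, edgeR adjusted p 0.993), 0.02 in endothelial cells (SE 0.20, edgeR adjusted p 0.958) and -0.11 in B cells (SE 0.25, edgeR adjusted p 0.834). Over all cells it was at 23.4, 22.5, 24.4, 23.1 and 24.2 CPM. In fibroblasts its disease values (38.6, 44.1 and 40.8 CPM) lay above the controls (36.2 and 34.5 CPM), as did those of Cd80 and of Cd28, 3 of 8 tested members against 24.9% of genes. Icosl was also the 1 T cell ligand with a negative estimate (-1.19, SE 1.38, edgeR adjusted p 0.741), from 27 UMIs. In B cells its disease values lay below the controls (1 of 3 tested members against 25.2% of genes).

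Among the receptors in T cells, the log2 fold change was 1.16 for Icos (SE 0.48, edgeR adjusted p 0.291), 1.06 for Pdcd1 (SE 0.77, edgeR adjusted p 0.589) and 0.78 for Ctla4 (SE 0.76, edgeR adjusted p 0.690). Each was lowest without control replicate 2, at 0.66, 0.30 and 0.045, and highest without control replicate 1, at 2.08, 3.101 and 2.735, so the order of the 3 changed with the library left out. Icos passed when every gene with a count was tested (edgeR adjusted p 0.0260). Cd28 was at 0.33 (SE 0.27, edgeR adjusted p 0.628), and its disease values of 377, 407 and 366 CPM lay above its control values of 340 and 268 CPM. It was 1 of 9 members with that order in T cells, against 12.0% of genes. Over all cells the receptors followed the number of T cells, with Ctla4 at 33.5, 1.53, 4.62, 163 and 51.5 CPM.

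**Figure D5:**
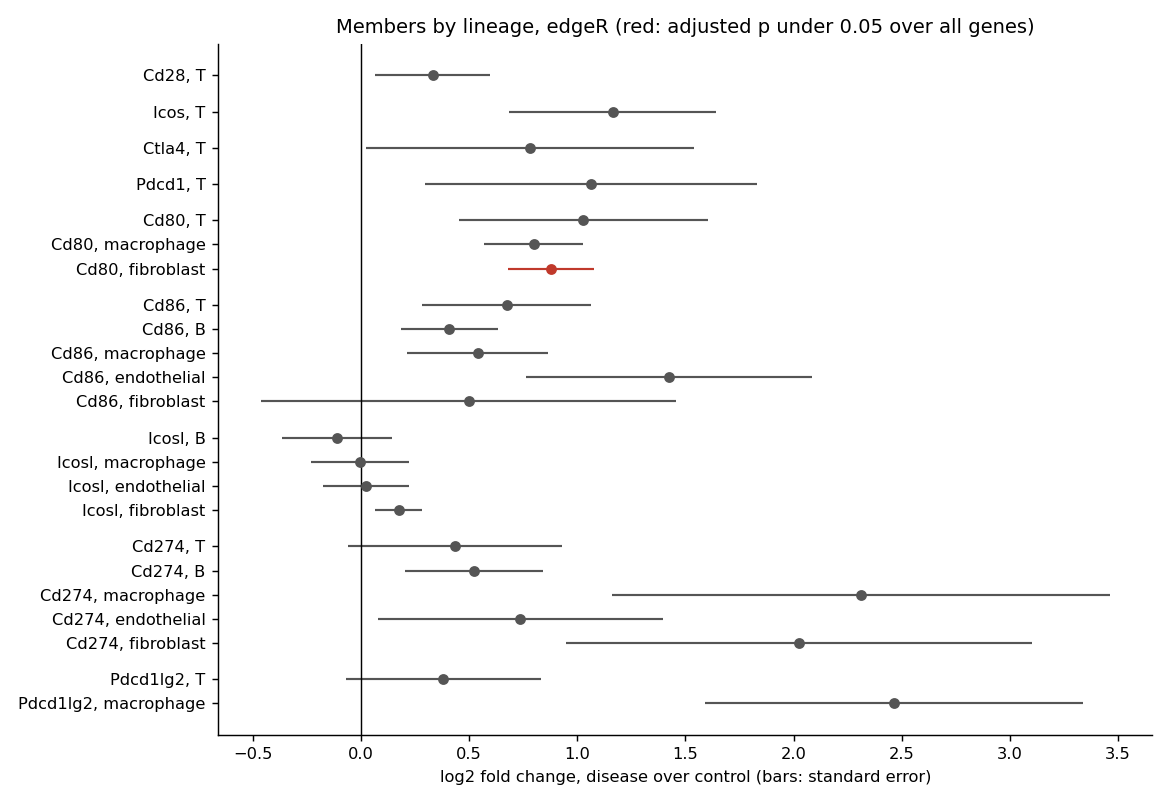
Log2 fold change of disease over control (horizontal axis; points are edgeR estimates and bars 1 standard error) for each ligand in the lineages where it was tested and each receptor in T cells. Icosl in T cells (-1.19, SE 1.38) was tested but is not drawn. Cd80 in fibroblasts, in red, is the 1 value with an adjusted p under 0.05, and the PD-1 ligands in macrophages have larger estimates with wider bars.

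Whether a change differed between lineages was tested for the 10 pairs of lineages with libraries as blocks. Of all members and pairs, 1 test passed: Cd274 in B cells against fibroblasts (difference of log2 fold changes -1.74, SE 0.43, edgeR adjusted p 0.0110), where 0.772% of 12822 genes were called. Cd274 was at 29.0, 36.5, 32.7, 46.4 and 54.7 CPM in B cells and at 8.88, 4.81, 5.08, 66.9 and 17.2 CPM in fibroblasts. The call was lost without control replicate 2 (log2 difference -1.04, edgeR adjusted p 1.000) or disease replicate 4 (-0.41, edgeR adjusted p 1.000) and with RLE scaling (edgeR adjusted p 0.320). In the other 9 pairs 0 members were called. There 0.847% of genes were called for B over endothelial cells, 0.127% for endothelial cells over fibroblasts, 0.0904% for B cells over macrophages, 0.0424% for macrophages over fibroblasts and 0.0215% for T cells over fibroblasts. The remaining shares were 0.0149% for T over endothelial cells, 0.0146% for T over B cells, 0.0145% for macrophages over endothelial cells and 0.00887% for T cells over macrophages.

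Among genes that act up- and downstream of these receptors and ligands, 0 were called higher in disease in any lineage. Calls among all genes were mostly lower too, 1649 of 1698 in fibroblasts and 1499 of 1541 in endothelial cells. Of 19 genes of ligand induction and stability, 18 were tested in fibroblasts and 5 fell, where 12.6% of all genes were called, and 18 were tested in endothelial cells and 5 fell, where 12.1% were called. The same 5 genes fell in both: Ifngr2, a chain of the interferon-gamma receptor (log2 fold change -1.92, SE 0.14, in fibroblasts and -1.94, SE 0.15, in endothelial cells), Socs1, an inhibitor of that pathway (-1.61 and -1.49), the kinase gene Jak1 (-0.84 and -0.73), Cmtm6, which keeps PD-L1 at the cell surface (-0.80 and -0.69), and Hif1a (-0.68 and -0.48). The list's median log2 fold change was -0.23 in fibroblasts, where that of all genes was -0.01, and -0.03 in endothelial cells, where that of all genes was 0.00085. In macrophages 1 of 17 tested genes fell, Ifngr2 (-1.90, SE 0.20, edgeR adjusted p 0.00368), a share near the 6.61% of all genes. In T cells Socs1 (-3.88, SE 0.30, edgeR adjusted p 0.00384) and Jak1 (-1.28, SE 0.27, edgeR adjusted p 0.0402) fell, 2 of 17 where 5.11% of all genes were called, and in B cells Socs1, Jak1 and Stat3, 3 of 16 where 9.47% were.

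Of 33 genes of T cell signalling, 32 were tested in T cells and 0 passed, with a median log2 fold change of -0.02 against 0.02 for all genes. From this list 2 of 27 tested genes fell in endothelial cells, where 12.1% of all genes were called, 1 of 24 in fibroblasts (12.6%), 1 of 28 in macrophages (6.61%) and 2 of 21 in B cells (9.47%), shares near or below those over all genes. Ptpn11, encoding the phosphatase SHP-2 that binds PD-1, fell in endothelial cells (-0.91, SE 0.10, edgeR adjusted p 0.00333), fibroblasts (-1.01, SE 0.13, edgeR adjusted p 0.00590), macrophages (-0.95, SE 0.17, edgeR adjusted p 0.0222) and B cells (-1.67, SE 0.39, edgeR adjusted p 0.0408). Malt1 fell in endothelial cells (-0.68) and Rasgrp1 in B cells (-1.49). Of 10 other genes of the B7 family and their partners, 5 were tested in fibroblasts and 5 in endothelial cells, and Rgmb, which encodes a partner of PD-L2, fell in both (-0.63 and -0.50). In macrophages 2 further genes of the interferon-gamma response did not pass, Irf1 (-0.14, SE 0.19, edgeR adjusted p 0.706) and Cxcl9 (2.73, SE 1.64, edgeR adjusted p 0.410). Ifng had too few counts to be tested there. In T cells Ifng was at 379, 29.8, 247, 424 and 300 CPM (0.62, SE 0.76, edgeR adjusted p 0.753).

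The libraries with high Cd274 were also those with high Cxcl9. In macrophages Cxcl9 was at 343, 10.0, 102, 2237 and 884 CPM, which ranked the 5 libraries as Cd274 did in these cells. In endothelial cells Cxcl9 was at 271, 136, 135, 1226 and 423 CPM. The T cell share ranked the libraries in the same way as the macrophage levels. The part of these values in the Cd274 levels was not tested.

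Over 29 sums of library and lineage, the genes with the most similar pattern were named for each member by Pearson's r of log2(CPM + 1) among 8320 genes. These sums share libraries and lineages, so r is a description. Cd28 was most like Cd96 (r 0.97), Icos most like Ctla4 (0.97), Ctla4 most like Tigit (0.98) and then Icos, and Pdcd1 most like Ctsw (0.97), Cxcr6 and Cd8b1. Cd86 followed Ptpn6 (0.98), Nckap1l and Plek. Cd274 followed Ogfr (0.86), Psme1 and Psmb9, of which the last 2 encode proteasome parts. Cd80 followed Rab8b (0.89), Icosl followed Sdc4 (0.85), and Pdcd1lg2 followed Itgb7 (0.95), Myo1g and Traf1. The best match of Cd274 among the other members was Pdcd1lg2, at 0.40.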

How the data were processed

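Per the file headers, the authors deposited UMI counts, not normalized, for every gene in every barcode from Cell Ranger 3.1.0, and the submitters' processing notes name Cell Ranger 3, Seurat 3, mm10 and GRCh38. From these counts, cells with at least 500 UMIs, 200 genes and at most 10% mitochondrial UMIs were kept, and 6.46% of them over all libraries were removed as the highest Scrublet scores of each library (scanpy 1.11.5), at 0.8% per 1000 cells, because the automatic threshold failed in 1 library. Lineages were gated by distinct marker UMIs (3 for a lineage). Cycling T cells and the resident, monocyte-like, dendritic and endothelial subsets needed UMIs of 2 distinct markers. CD4 cells had a Cd4 UMI and none of Cd8a, Cd8b1 or Foxp3. CD8 cells had a Cd8a or Cd8b1 UMI and none of Cd4 or Foxp3. These classes, the regulatory cells and the Cxcl9 class can thus rest on a single UMI. No gene is given a result in a comparison that it gates. UMIs were summed per library and lineage and tested with edgeR 4.0.16 (TMM, filterByExpr, quasi-likelihood F test, Benjamini-Hochberg over all genes tested) in R 4.3.3. Lineages, subsets and changes that differed between lineages were fitted with libraries as blocks. Sums under 10 cells were left out, and disease was compared with control where each library had 50 cells.

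Library totals after filters were 22266126 to 46142866 UMIs. Intervals are exact Poisson at 95% and cover counting error only. The test scripts were tested on simulated data. The labels name no batch. Alternatives were RLE scaling, DESeq2 1.42.0, no filter on low counts, a stricter gate, a mitochondrial limit of 25%, doublets kept, thinning to 1000 UMIs, leaving out each library, and, added after seeing the data, offsets for GC content. All members are named, with pathway genes past an adjusted p of 0.05, Ifng, Irf1 and Cxcl9, and the 3 genes most like each member. A gene that this rule also names is not reported here. The members and lists were chosen with earlier results of these data known.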

Additional observations from a re-analysis of the deposited data

Results flagged for a closer look

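The change of Cd274 in disease differed between B cells and fibroblasts by a test of the difference itself (log2 difference -1.74, SE 0.43, edgeR adjusted p 0.0110). Cd274 was higher in the disease mean of both lineages, from 32.7 to 44.6 CPM in B cells and from 6.85 to 29.7 CPM in fibroblasts. The difference lost its call without control replicate 2 (-1.04) or disease replicate 4 (-0.41).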

How the results depend on the processing

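No paired analysis was possible because the replicate numbers 1 to 5 are unique and the groups share none. Each single-gene result was counted once for every library left out and once for every other setting. Leaving out a library kept direction and side of the threshold in 369 of these counts. It lost the call in 22, gained one in 5 and turned the sign in 18. The other settings gave 341, 7, 7 and 12. The cause of these changes was not tested.

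Signs turned for Icosl over all cells with GC offsets (-0.0174), for Icosl in macrophages with RLE (0.0242), no filter (0.00492), the wider mitochondrial limit (0.0392), doublets kept (0.000208) and DESeq2 (0.0393), and for Icosl in endothelial cells with the mitochondrial limit (-0.0221) and GC offsets (-0.0446). They also turned for Cd80 in T cells over macrophages with RLE (-0.00537) and no filter (-0.0125), and with no filter for Ctla4 in CD4 over CD8 cells (-0.0273) and in cycling T cells (-0.00265). Without 1 library the log2 change in disease ranged from -0.0221 to 0.172 for Icosl over all cells, -0.0671 to 0.733 for Cd274 in T cells, -0.280 to 0.226 for Icosl in macrophages, -0.120 to 0.179 for Icosl and -0.0512 to 1.16 for Cd274 in endothelial cells, and -0.807 to 1.82 for Cd86 in fibroblasts. Ranges that crossed 0 between cell types were -0.0868 to 0.160 for Cd80 in T cells over macrophages, -1.13 to 0.0297 for Cd274 and -0.209 to 0.789 for Pdcd1lg2 in B cells over macrophages, -0.150 to 0.795 for Cd274 in dendritic over endothelial cells, -0.162 to 0.247 for Ctla4 in cycling T cells, and -0.0814 to 0.190 for Cd86 and -0.0490 to 0.605 for Icosl in resident macrophages.

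Genes called in disease numbered 1043 over all cells (DESeq2 1656, without 1 library 125 to 1232), 484 in T cells (no filter 911, GC offsets 286, without 1 library 5 to 410), 478 in B cells (no filter 1008, DESeq2 307, without 1 library 52 to 511), 728 in macrophages (no filter 1384, without 1 library 219 to 1040), 1541 in endothelial cells (752 to 1547) and 1698 in fibroblasts (766 to 1777). Members called were 1 in T cells with no filter, 2 in macrophages with no filter and 1 with DESeq2 (0 to 1 without 1 library), and 0 in fibroblasts with the mitochondrial limit, doublets kept or GC offsets (0 to 1). Without 1 library they were 1 to 2 between CD4 and CD8 cells and 2 to 4 between macrophage Cxcl9 classes. In tests of whether a change differed between lineages, RLE gave 0 for B cells against fibroblasts (0 to 1 without 1 library). Over all pairs of lineages in those tests, RLE gave 0 and no filter 5 (0 to 5 without 1 library).

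Depth limits shares of cells: after thinning, the mean share of endothelial cells with a Cd274 UMI fell from 26.1 to 12.6% and of fibroblasts with an Icosl UMI from 19.2 to 3.97%.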

Other observations

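Small gates outside the 6 lineages also held ligands, pooled over the 5 libraries and without a test. The 198 neutrophils held Cd80 at 134 CPM and Cd274 at 84.6 CPM. The 51 cells gated as type 2 innate lymphoid cells held Pdcd1lg2 at 82.4 CPM, Cd274 at 92.1 CPM and Icos at 262 CPM. The 76 natural killer cells held Pdcd1 at 334 CPM and Cd28 at 149 CPM.

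Ctla4 and Pdcd1 were often detected in the same T cells. A Ctla4 UMI was found in 73.1, 50.0, 61.9, 77.2 and 74.6% of T cells with a Pdcd1 UMI and in 31.7, 4.76, 8.06, 36.6 and 33.6% of those without, in the order of replicates 1 to 5. In macrophages a Pdcd1lg2 UMI was found in 6.18, 5.00, 7.14, 15.0 and 21.8% of cells with a Cd274 UMI and in 0.457, 0.221, 0.586, 1.39 and 1.45% of those without. Macrophages with a Cd274 UMI were also deeper in all 5 libraries (medians of 6168.5 to 11444 against 5063 to 6023 UMIs), and T cells with a Pdcd1 UMI in 4 of 5, with the reverse in control replicate 2. The part of depth was not tested.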
